A study of Caenorhabditis elegans with 4 samples.

Results

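The 258 reproducible peaks on the X chromosome of *Caenorhabditis elegans* are described here, out of 1033 in the whole genome (ce11 build) that the submitters kept after a test of reproducibility, the irreproducible discovery rate (IDR). They come from chromatin immunoprecipitation with sequencing (ChIP-seq) of GFP-tagged CES-1. Members were taken by chromosome alone: every peak of the IDR list that lies on X. They were set against the 4965 X regions of the list made from all 4 libraries together that overlap none of them, called the other X regions below. Of the 5254 pooled X regions, 289 (5.5%) overlap an X IDR peak, and on the autosomes 844 of 20212 (4.18%) overlap an IDR peak. The 749 IDR peaks on the autosomes are the second point of comparison.

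The 4 libraries are biological replicates of a single group, with nothing to compare it with. All are whole L4 larvae, the last larval stage, labelled as pooled male and female, of strain OP174. Every animal carries the unc-119(ed3) allele and the integrated transgene wgIs174, in which ces-1 is fused to the tags TY1, EGFP and FLAG and unc-119 is supplied beside it. The labels do not state where the transgene was integrated, and whole animals mix all cell types, so a peak cannot be assigned to a tissue. Per the labels, fragments of replicates 1 and 2 have a size range, and those of replicates 3 and 4 were made by sonication with a microtip. The list of every library stops at 30000 regions, and the number of reads behind it is unknown. Replicate 3 stands apart: it holds 225 of the 258 X IDR peaks, where replicates 1, 2 and 4 hold 254, 257 and 250. Differences in promoter share, library support and signal percentile, and the number of peaks found in all libraries, are given with and without it. Other shares within the libraries are given replicate by replicate.

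CES-1 is a zinc finger transcription factor of the Snail family, known in worms for blocking the programmed death of sister cells of pharyngeal neurons, and Snail factors in animals typically recognise the E-box CAGGTG. The X chromosome of the worm is under dosage compensation: in animals with a pair of X chromosomes, a condensin-containing complex binds both copies and lowers their transcription. The complex is loaded at recruitment elements on X, which carry a longer sequence motif known as MEX, and the letters CGCAGGG are part of it. These statements are background and were not measured here.

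The strongest X peaks are shown first through their sequence, because 10 of the 16 strongest hold CGCAGGG within 100 bp of the summit. Each line gives 61 bases of the RefSeq genome (ce11, WBcel235) around the CGCAGGG nearest to the summit, read on the strand that spells it, with CGCAGGG in capitals. The name gives the rank of the peak by signal among the X IDR peaks.
Rank 1, chrX:11094098-11094158, minus strand: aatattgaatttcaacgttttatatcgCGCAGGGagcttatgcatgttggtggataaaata
Rank 2, chrX:16682145-16682205, minus strand: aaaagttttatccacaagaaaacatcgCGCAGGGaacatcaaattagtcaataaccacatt
Rank 5, chrX:2997096-2997156, minus strand: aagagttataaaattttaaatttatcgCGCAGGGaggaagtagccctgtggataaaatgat
Rank 6, chrX:6296550-6296610, plus strand: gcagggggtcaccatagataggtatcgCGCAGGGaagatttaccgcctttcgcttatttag
Rank 10, chrX:14525873-14525933, minus strand: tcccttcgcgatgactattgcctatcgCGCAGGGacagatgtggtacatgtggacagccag
Rank 11, chrX:11937515-11937575, plus strand: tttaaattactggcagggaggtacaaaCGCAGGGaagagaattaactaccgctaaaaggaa
Rank 12, chrX:806648-806708, plus strand: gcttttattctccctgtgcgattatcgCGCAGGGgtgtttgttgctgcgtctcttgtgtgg
Rank 14, chrX:8036374-8036434, minus strand: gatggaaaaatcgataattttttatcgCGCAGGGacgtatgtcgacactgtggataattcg
Rank 15, chrX:1345030-1345090, plus strand: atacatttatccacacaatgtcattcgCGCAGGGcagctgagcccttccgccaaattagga
Rank 16, chrX:4209239-4209299, minus strand: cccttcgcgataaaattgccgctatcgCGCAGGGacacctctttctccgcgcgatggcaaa

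The likeness among these sites runs beyond the 7 letters searched for, but the flanks of CGCAGGG at other places were not compared. Over all 17 X IDR peaks with CGCAGGG within 100 bp, the base before it at the nearest site is G in 14 and the base before that is C in 11. The next positions outward are T in 12, A in 11 and T in 12, and the base just after CGCAGGG is A in 14. The 17 peaks hold 21 sites, 10 on the plus and 11 on the minus strand, at a median distance of 20 bp from the summit. In 4 of them there is more than 1 site. The peak of rank 14 has them on opposite strands on either side of a short stretch, shown here as the 101 bases centred on its summit, with both sites in capitals.
Rank 14 summit, chrX:8036351-8036451, plus strand: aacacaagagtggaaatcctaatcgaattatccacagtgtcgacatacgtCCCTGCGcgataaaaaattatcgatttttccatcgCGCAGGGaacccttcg

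CGCAGGG was one of 8 motifs looked for, on either strand, up to 50 bp from the summit. The motifs were chosen with earlier results of these data known, so their counts describe the peaks and do not test them. It was present at 12 X IDR peaks (4.65%), at 14 other X regions (0.282%) and at 8 autosomal IDR peaks (1.07%). Within 100 bp it was present at 17 X IDR peaks (6.59%), 27 other X regions (0.544%) and 11 autosomal IDR peaks (1.47%). When X is cut into 88153 windows of 201 bp, 288 of them (0.327%) hold the letters. The share within 50 bp was 6.09%, 4.47%, 4.76% and 3.69% of the regions at X IDR peaks in replicates 1 to 4, against 0.292%, 0.202%, 0.207% and 0.180% of the other X regions of the same libraries and 0.723%, 0.449%, 0.786% and 1.01% of the regions at autosomal IDR peaks. The X IDR values lie above both of the others in each of the 4 libraries. In the same order, the means are 4.75 ± 1.00%, 0.220 ± 0.0492% and 0.742 ± 0.231% (SD, n = 4). The regions at IDR peaks are largely the same loci in every library, so this spread does not replicate a motif share over loci. IDR summits on X have a higher GC content than the other X regions, 41.2% against 34.6% over the 101 bases. Among regions of at least 40% GC, 8 of 136 X IDR peaks (5.88%) and 12 of 1202 other X regions (0.998%) held CGCAGGG. Among those of lower GC the counts were 4 of 122 (3.28%) and 2 of 3763 (0.0531%).

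**Figure D1:**
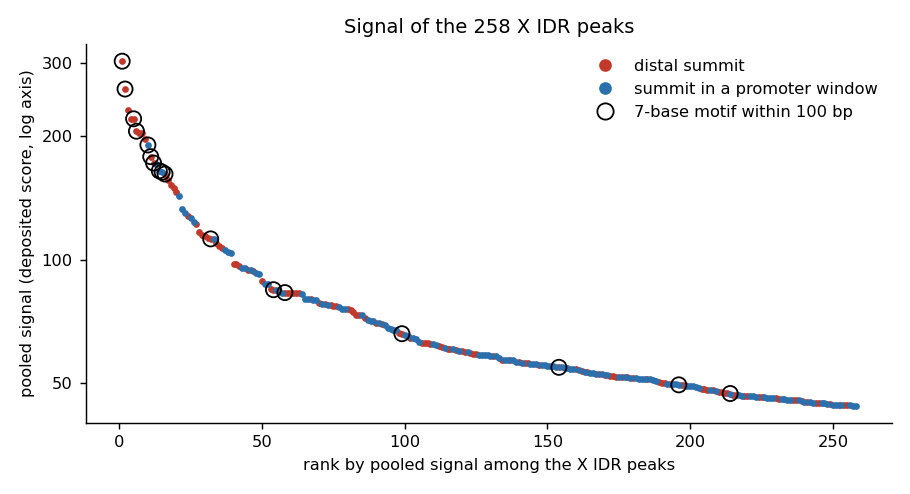
Pooled signal (the deposited score, log axis) of each of the 258 X IDR peaks against its rank. Distal and promoter-window summits are coloured apart, and rings mark peaks with CGCAGGG within 100 bp of the summit; 10 of the 17 rings lie among the 16 strongest peaks, and 12 of those 16 peaks are distal.

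The signal of a peak is the score the authors deposited, used only to rank regions within a list. Across the 258 X IDR peaks it ran from 44.2 to 303.6 with a median of 58.5, and the other X regions reached 44.2 with a median of 14.2. The autosomal IDR peaks had a median of 58.8 and a maximum of 723.2. The 17 X peaks with CGCAGGG within 100 bp had a median signal of 163.1, and the 241 without it had 57.1. By quintiles of the X peaks from the strongest to the weakest, 11, 3, 1, 1 and 1 held the letters. The same quintiles of the autosomal IDR peaks held 1, 1, 5, 3 and 1.

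The 16 strongest X IDR peaks form the upper end of the list, with signals of 161.4 to 303.6. The number 16 was chosen after the values were seen, so what follows is a description of them. A summit was called promoter-proximal when a transcript of any gene type starts nearby, so that the summit lies at most 1000 bp before or 200 bp after that 5′ end, and distal otherwise. Of the 16, 12 were distal and 4 (25%) were promoter-proximal. Of the other 242 X IDR peaks, 112 were distal and 130 (53.7%) were promoter-proximal. All 16 were found in all 4 libraries, at rank 247 or better among 30000 regions. They are spread out: neighbours among them were 168809 to 2156281 bp apart, with a median of 995458 bp.

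The strongest of all, chrX:11093968-11094318 with a signal of 303.6, lies between genes, 4009 bp from the nearest protein-coding 5′ end, that of W02H3.3. Its regions ranked 20, 33, 14 and 22 in replicates 1 to 4. The next, chrX:16682018-16682276 with a signal of 259.7, lies 2581 bp from the 5′ end of F22H10.2 and ranked 28, 32, 17 and 25. The peak of rank 3, chrX:7040824-7041067 with a signal of 230.9, lies 4906 bp upstream of cest-19, a carboxylesterase family gene, and ranked 35, 20, 61 and 40. All 3 therefore stood within the first 61 regions of every library, and the first and second hold CGCAGGG where that of rank 3 does not.

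Intronic summits make up the next set. The peak of rank 4, chrX:14356910-14357132 with a signal of 220.1, lies in an intron of irk-3, a gene for an inwardly rectifying potassium channel, and ranked 44, 22, 30 and 55. It holds no CGCAGGG within 100 bp. The peak of rank 5, chrX:2996984-2997256 with a signal of 219.9, lies in an intron of Y41G9A.17 and ranked 48, 29, 19 and 39. A weaker IDR peak, chrX:2997185-2997374 with a signal of 84.5, overlaps it and has a CGCAGGG site of its own. The peak of rank 6, chrX:6296466-6296769 with a signal of 205.1, lies in an intron of mom-1, the worm counterpart of Porcupine, which is needed for secretion of Wnt signals, and ranked 38, 58, 40 and 24.

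Ranks 7 to 9 and 11 to 12 are intergenic and distal. The peaks near F19H6.5 (203.6), ZK899.6 (202.9) and K02D3.1 (196.3) lack CGCAGGG, and those near F55G7.5 (177.9) and gtr-1 (171.7) hold it. In replicates 1 to 4 the F55G7.5 peak ranked 34, 218, 46 and 35, so that replicate 2 gives it a lower place than the others. The gtr-1 peak ranked 40, 62, 80 and 48.

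The 4 promoter-proximal members of the 16 lie at different kinds of genes. The rank 10 peak (190.0) lies 659 bp upstream of nspc-17, and ranked 87, 30, 20 and 29. The rank 13 peak (170.8) lies 889 bp upstream of apl-1, the worm homologue of the amyloid precursor protein, and ranked 62, 55, 94 and 58. It is the only one of the 4 without CGCAGGG within 100 bp. The rank 14 peak (164.4) lies in the promoter window of the non-coding gene C18A11.13. Its nearest protein-coding 5′ end is that of xol-1, the switch gene of sex determination and dosage compensation, 4912 bp away. It ranked 75, 247, 217 and 20, the widest spread of the 16. The rank 15 peak (163.1) lies 642 bp upstream of ins-39, an insulin-like peptide gene, and ranked 56, 104, 26 and 41.

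Other sequence runs recur among the 16. GTGGATA and CCTTCGC were picked out by reading the sequences above, so their counts have no test. GTGGATA lies within 100 bp of the summit, on either strand, at 7 of the 16 and at 3 of the other 242 X IDR peaks, against 70 of 4965 other X regions (1.41%) and 8 autosomal IDR peaks (1.07%). CCTTCGC lies there at 7 of the 16 and at 6 of the 242, against 37 other X regions (0.745%) and 9 autosomal IDR peaks (1.20%). At least 1 of the 3 runs, CGCAGGG included, is present at 12 of the 16, and all 3 are present at 2, the peaks of rank 1 and rank 5. The 4 peaks with none are those of ranks 3, 4, 7 and 13, near cest-19, irk-3, F19H6.5 and apl-1.

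The strongest regions of single libraries were taken by each library's own signal. Of the 25 X regions of highest signal in each library, 10, 8, 9 and 11 had CGCAGGG within 100 bp in replicates 1 to 4, against 0.641%, 0.531%, 0.523% and 0.395% of the rest of the library's X regions. Of the 25 strongest autosomal regions, 0 had it in each of the 4 libraries. The 25 on X were promoter-proximal in 10, 8, 8 and 9 cases (40%, 32%, 32% and 36%), against 42.9%, 42.3%, 40.5% and 39.9% of the rest of the X regions, and the 25 on the autosomes in 17, 22, 21 and 17. The gap in promoter share to the rest of X was thus smaller than that between the 16 strongest and the other X IDR peaks. These gaps have different baselines, since the rest of X is mostly regions without an IDR peak. Among all regions of a library at X IDR peaks the share was 52.3%, 51.5%, 51.6% and 54.4% in replicates 1 to 4. Of the 25 on X, 25, 25, 24 and 25 overlap an X IDR peak, so these are largely the same loci measured in each library.

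**Figure D2:**
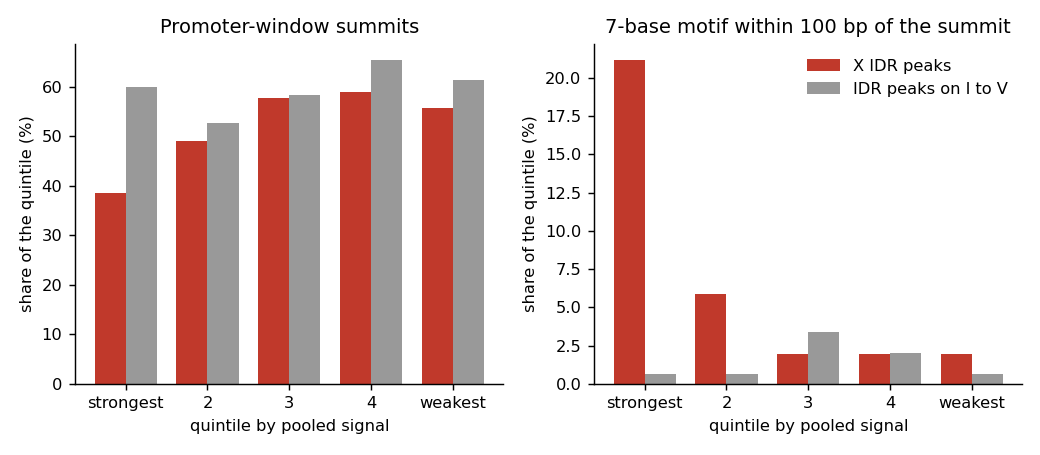
Share of promoter-proximal summits (left, percent) and of summits with CGCAGGG, the 7-base motif, within 100 bp (right, percent) in quintiles by pooled signal, for X IDR peaks and autosomal IDR peaks. On X the strongest quintile has the lowest promoter share, 38.5%, and 11 of its 52 peaks hold the motif; the strongest autosomal quintile has 60.0% and 1 of 150.

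Over the whole set, 134 of the 258 X IDR peaks (51.9%) were promoter-proximal, against 2109 of the 4965 other X regions (42.5%) and 446 of the 749 autosomal IDR peaks (59.5%). The pooled autosomal regions without an IDR peak had 47.4%, which is also above the other X regions. How far this background enters the difference between X and autosomal IDR peaks was not tested. The shares were also taken among each library's own regions. The 4 libraries largely measure the same loci there, since their regions were kept for overlapping the same IDR peaks, and the spread and p below do not replicate a share over loci. In replicates 1 to 4, 52.3%, 51.5%, 51.6% and 54.4% of the regions at X IDR peaks were promoter-proximal, against 42.4%, 41.8%, 39.9% and 39.1% of the library's other X regions and 60.0%, 59.3%, 59.5% and 59.7% of the regions at autosomal IDR peaks. The 3 sets do not overlap in any value. X IDR peaks exceeded the other X regions by 11.6 ± 2.54 percentage points (SD, n = 4), in 4 of 4 libraries, with p = 0.13 and 0.25 after Benjamini-Hochberg adjustment over the 4 differences computed, of which library support and signal percentile are the other 2 (exact sign-flip permutation test over libraries, two-sided). Against the autosomal IDR peaks the difference was −7.17 ± 1.25 points (SD, n = 4), negative in 4 of 4 libraries, with the same exact permutation p of 0.13 and 0.25 after adjustment. With 4 libraries 0.13 is the smallest p this test can give, so neither difference could pass 0.05. Without replicate 3 the differences were 11.6 and −6.92 points.

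The difference from the other X regions was smaller without the windows of non-coding genes. With 5′ ends of protein-coding genes only, the difference between X IDR peaks and other X regions was 3.41 points, and with the upper 50% of the X IDR peaks by signal it was 4.15 points. Against the autosomal IDR peaks the difference widened to −15.6 points with protein-coding 5′ ends, −12.04 points in the upper 50% by signal and −11.0 points with a narrower window, 500 bp before to 100 bp after the 5′ end. With protein-coding 5′ ends only, 25.7% of the other X regions were promoter-proximal. The pooled autosomal regions without an IDR peak had 33.3%. GC content moves with the promoter shares. Among regions of at least 40% GC, 55.9% of X IDR peaks and 53.7% of other X regions were promoter-proximal, and below 40% GC the shares were 47.5% and 38.9%. The part of GC content in the difference was not tested further.

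**Figure D3:**
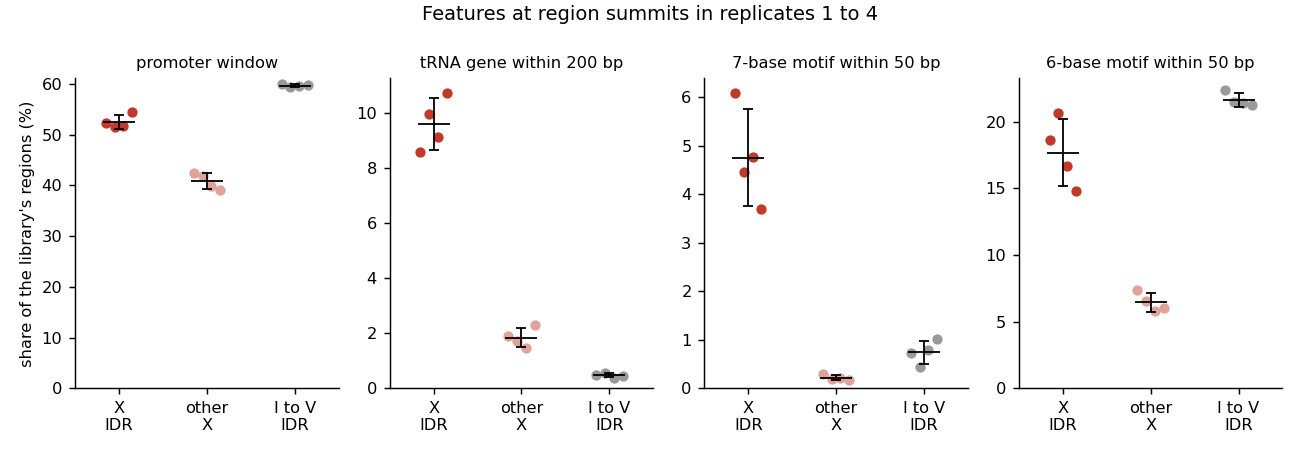
Share of a library's regions (percent) with a promoter-proximal summit, a tRNA gene within 200 bp, CGCAGGG (the 7-base motif) within 50 bp or GAGAGA (the 6-base motif) within 50 bp, for regions at X IDR peaks, other X regions and regions at autosomal IDR peaks. Points are replicates 1 to 4 from left to right, and bars are the mean ± SD. Regions at IDR peaks are largely the same loci in every replicate, so the SD does not replicate a share over loci. The tRNA share is 8.60 to 10.7% at X IDR peaks and at most 2.29% in both other sets.

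Promoter share changed along the signal order on X. From the strongest to the weakest quintile, 20 of 52, 25 of 51, 30 of 52, 30 of 51 and 29 of 52 X IDR peaks were promoter-proximal, which is 38.5%, 49.0%, 57.7%, 58.8% and 55.8%. The autosomal quintiles had 60.0%, 52.7%, 58.4%, 65.3% and 61.3%. The median distance to the nearest protein-coding 5′ end was 2444.5 bp in the strongest X quintile and 1179 bp in the weakest. Over all 258 X IDR peaks it was 1657.5 bp, against 1543 bp for the other X regions and 994 bp for the autosomal IDR peaks. The pooled autosomal regions without an IDR peak had a median of 1142 bp. Summits more than 5 kb from any protein-coding 5′ end numbered 31 of the 258 X IDR peaks, 9.77% of the other X regions and 7.48% of the autosomal IDR peaks.

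By annotated feature, 137 X IDR summits (53.1%) were intergenic, 77 (29.8%) lay in an intron of a protein-coding gene and 29 (11.2%) in an exon of a non-coding gene. Coding exons held 7 (2.71%), 5′ UTRs 4 (1.55%) and 3′ UTRs 4 (1.55%). The other X regions had larger shares in coding exons (10.1%) and 3′ UTRs (4.29%), and a smaller one in non-coding exons (4.23%). The strongest of the coding-exon peaks, with a signal of 145.6, lies in C35C5.10 and ranked 74, 90, 86 and 56 in replicates 1 to 4. Another, with a signal of 77.9, lies in acr-12, a gene for an acetylcholine receptor subunit, 261 bp downstream of its 5′ end. It ranked 491, 92, 16421 and 634, so replicate 3 places it far lower than the others.

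Transfer RNA genes are short genes read by RNA polymerase III. One lay within 200 bp of the summit at 24 X IDR peaks (9.30%), against 132 other X regions (2.66%) and 4 autosomal IDR peaks (0.534%). In replicates 1 to 4 the share among regions at X IDR peaks was 8.60%, 9.97%, 9.13% and 10.7%, against 1.89%, 1.73%, 1.48% and 2.29% of the other X regions and 0.482%, 0.562%, 0.393% and 0.449% of the regions at autosomal IDR peaks. The 3 sets do not overlap in any library, and the comparison was added after the data were seen, with no test. The regions at IDR peaks are largely the same loci in every library, so this agreement does not replicate the share over loci. X is also richer in these genes, with 276 (15.6 per Mb) against 336 on the autosomes (4.07 per Mb). Counted by gene, 28 of the 276 X tRNA genes (10.1%) and 5 of the 336 autosomal ones (1.49%) had an IDR summit within 200 bp. Summits of weaker pooled regions were about as frequent at both, at 134 X tRNA genes (48.6%) and 150 autosomal ones (44.6%). Several tRNA genes can share 1 peak and near-identical copies can share reads, so these genes are not independent.

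The strongest tRNA-side peak on X, chrX:5801206-5801549 with a signal of 126.4, has a pair of tRNA genes in its window and ranked 181, 156, 79 and 67. Its 101 bases around the summit are shown because they also carry the GAGAGA repeat, in capitals.
Rank 25 summit, chrX:5801328-5801428, plus strand: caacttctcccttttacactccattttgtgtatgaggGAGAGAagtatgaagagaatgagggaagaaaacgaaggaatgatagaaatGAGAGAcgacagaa

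The next tRNA-side peak, with a signal of 112.2 and nearest to lgc-21, ranked 403, 460, 43 and 75. One inside an intron of him-4, which encodes the extracellular matrix protein hemicentin, had a signal of 94.4 and ranked 213, 233, 489 and 375. By gene type, 72 X IDR peaks (27.9%) had a protein-coding 5′ end in reach and 25.7% of the other X regions did. For non-coding RNA genes these were 67 (26.0%) against 17.8%, and for tRNA genes 27 (10.5%) against 3.36%. A microRNA gene was in reach at 3 X IDR peaks (1.16%) and at 23 other X regions (0.463%). A window of non-coding types alone held 62 X IDR summits (24.0%), against 16.7% of the other X regions.

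GAGAGA, a purine repeat, lay within 50 bp of 54 X IDR summits (20.9%), against 7.57% of the other X regions and 22.8% of the autosomal IDR peaks. In replicates 1 to 4 it was at 18.6%, 20.6%, 16.7% and 14.8% of the regions at X IDR peaks, against 7.35%, 6.57%, 5.82% and 6.03% of the other X regions. From the strongest to the weakest quintile it was at 10, 11, 13, 10 and 10 X IDR peaks. Of the 16 strongest 2 had it, and 35 of the 54 peaks that had it (64.8%) were promoter-proximal. It moves with GC content too: among regions of at least 40% GC it was at 34 of 136 X IDR peaks and 14.9% of other X regions, and below that at 16.4% and 5.24%. GCGCGA was at 16 X IDR peaks (6.20%), 1.69% of other X regions and 4.01% of autosomal IDR peaks.

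The Snail-type E-box CAGGTG was at 5 X IDR summits (1.94%), 97 other X regions (1.95%) and 5 autosomal IDR peaks (0.668%). Its share at X IDR peaks was 1.79%, 1.03%, 2.78% and 1.34% in replicates 1 to 4, against 2.28%, 1.93%, 2.44% and 2.21% of the other X regions. The difference between these X sets has no fixed direction over the libraries. The regions at autosomal IDR peaks had 0.843%, 0.449%, 0.655% and 1.01%, below those at X IDR peaks in each library. These shares rest on few loci, with 5 X IDR peaks and 5 autosomal IDR peaks in the IDR list. The 5 peaks include those of rank 16 near F20B6.9 and rank 18 near fbxb-58. The weaker ones lie 8138 bp upstream of nhr-1, in an intron of unc-7 and 586 bp upstream of C04C11.25. The unc-7 summit is in the promoter window of a tRNA gene, but no tRNA gene lies within 200 bp of it. The summit near C04C11.25 does have a tRNA gene within 200 bp. The general E-box form CANNTG, which includes CAGGTG and CACGTG, was at 31.8% of X IDR peaks and 32.4% of other X regions. CACGTG was at 1.55% and 1.43%, GATAA at 20.9% and 21.2%, and TAATTA at 5.43% and 6.0%, so each of these motifs was about as frequent in both X sets. At autosomal IDR peaks CANNTG was at 32.3%, CACGTG at 2.14%, GATAA at 14.8% and TAATTA at 4.94%.

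Positions of the peaks cover the chromosome. X is 17718942 bp long, the first IDR summit lies at 305262 and the last at 17628527. There were 14.6 X IDR peaks per Mb against 9.07 per Mb on the autosomes. Pooled regions without an IDR peak were also denser on X, at 280.2 per Mb against 234.6 per Mb. Each full window of 1 Mb, without the shorter last one, held between 7 and 20 X IDR peaks, with a median of 16. The left, middle and right part of X, each of equal length, held 96, 86 and 76 peaks, which is 37.2%, 33.3% and 29.5%. The other X regions had 31.5%, 34.6% and 33.9% there, and protein-coding genes 31.9%, 35.7% and 32.4%. The IDR peaks thus have their largest share in the left part, where neither of the others does.

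Neighbouring X IDR summits were a median of 46921 bp apart, with quartiles of 18509 and 101454 bp. The median gap on the autosomes was 61033.5 bp. Another IDR summit lay within 2 kb at 37 X peaks (14.3%), against 11.6% of autosomal IDR peaks, and within 5 kb at 65 (25.2%), against 22.7%. Those 65 form 29 groups, of which 23 are pairs, 5 have 3 peaks and 1 has 4. The group of 4 spans chrX:10145027-10155516 at unc-115, which encodes an actin-binding protein of axon guidance, and F09B9.5. Its signals are 45.0, 77.7, 95.4 and 62.7 from left to right, and the peak of 77.7 lies 168 bp upstream of unc-115. A group of 3 distal peaks at chrX:6247908-6251155, with signals of 82.8, 46.3 and 114.1, has got-2.2, an aspartate aminotransferase gene, as its nearest coding gene. Another 3 distal peaks at chrX:5027940-5032169 near ZC449.4 have signals of 83.0, 69.9 and 77.8. The regions have 1 fixed width of 344 bp in 229 cases, 27 are narrower and 2 are wider, and 4 overlap another IDR peak.

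**Figure D4:**
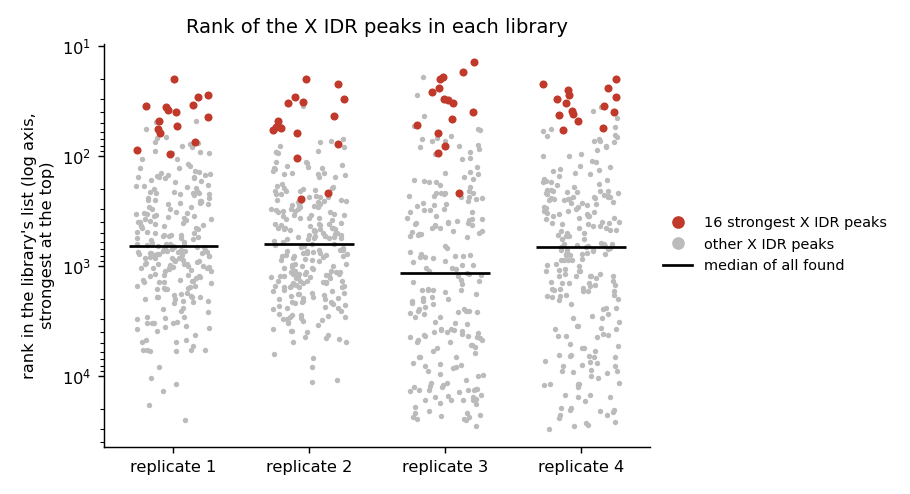
Rank of each X IDR peak in the list of each library (log axis, strongest at the top), with the 16 strongest by pooled signal coloured and the median of the peaks found as a line. The 16 stand at rank 247 or better in all 4 libraries, and replicate 3 has the lowest-placed median, 1148.

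Support in the single libraries describes the members but does not test them, since the IDR list was derived from these libraries. Of the 258 X IDR peaks, 215 (83.3%) overlapped a region of all 4 libraries, 41 a region of 3 libraries, 1 of 2 libraries and 1 of a single library. Without replicate 3, 246 were in all of the other libraries. The share in all 4 was 9.33% for the other X regions (463 of 4965) and 84.0% for the autosomal IDR peaks. Replicate 3 lacked 33 X IDR peaks, replicate 4 lacked 8, replicate 1 lacked 4 and replicate 2 lacked 1. The peaks found had a median rank of 648.5, 632, 1148 and 672.5 in replicates 1 to 4. Among the 2000 strongest regions of a library were 214, 214, 129 and 181 of them.

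Support on X is set beside that of the autosomal IDR peaks as a description, since the IDR step chose both from these libraries and both lie near the highest possible values. The share of X IDR peaks found was 98.4%, 99.6%, 87.2% and 96.9% in replicates 1 to 4, against 98.8%, 99.3%, 87.6% and 97.9% of autosomal IDR peaks. The difference was −0.352 ± 0.508 percentage points (SD, n = 4), negative in 3 of 4 libraries. The median percentile of signal within the library was 97.8, 97.9, 96.2 and 97.8 for X IDR peaks, against 97.7, 98.0, 95.3 and 97.4 for autosomal ones. That difference was 0.347 ± 0.419 (SD, n = 4), positive in 3 of 4 libraries. Without replicate 3 they were −0.344 points and 0.163. Both differences are smaller than their spread between libraries, which does not show that the sets are alike.

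Some members differed widely between libraries or were missing from several. The peak chrX:10766097-10766440 near sma-9, a zinc finger gene of the Schnurri family, had a signal of 108.2 and ranked 81, 91, 28258 and 124. The peak 978 bp upstream of unc-2, a voltage-gated calcium channel gene, was found in replicates 1 and 2 alone, at ranks 622 and 261. That upstream of the homeobox gene ceh-89 was found in replicate 2 alone, at rank 540, with a pooled signal of 44.4. Members named in this paragraph were picked after their values were seen, apart from unc-2 and ceh-89, which the gene lists below name.

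At the lower end, the list stops at a signal of 44.2. The 3 weakest members lie upstream of tbc-18, C09G1.2 and F46H5.2, at 44.2 each, and that at F46H5.2 ranked 448, 8283, 230 and 29939. Just outside are the X regions near ZK721.3 (44.2), unc-2 (44.1) and inso-1 (44.1). The region near ZK721.3 ranked 1473 and 660 in replicates 1 and 2 and 8249 in replicate 4, and was not in replicate 3. That near unc-2 ranked 779, 1852, 4447 and 1232. The ranks of these members and of these non-members overlap.

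Gene lists by symbol give the functions of the genes with an IDR summit in the promoter window. Of the 2386 X genes of any type with a pooled summit there, 206 (8.63%) had an IDR summit, and of the 1067 protein-coding ones 74 (6.94%). Of the 24 lists, 13 had at least 1 gene with an IDR summit on X. Only promoter windows were counted, so distal summits, such as those in introns of npr-4, dop-3 and lin-14, are left out of these counts. The counts within lists are too small to set against these shares, and no list was tested.

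The list of vulval and growth factor signalling had IDR summits at 4 of the 10 genes with a pooled summit. They are gap-1, a GTPase-activating protein for Ras, lin-18, a Ryk-type Wnt receptor, mom-1 and egl-17, a fibroblast growth factor. The gap-1 peak lies 379 bp upstream of the gene with a signal of 133.1 and ranked 69, 80, 240 and 73. The lin-18 peak lies 753 bp upstream with a signal of 130.1 and ranked 94, 115, 319 and 65. Both are high in all 4 libraries, with their lowest place in replicate 3. The egl-17 peak lies inside the gene, 167 bp downstream of its nearest annotated 5′ end, with a signal of 49.6. It ranked 1029, 1203 and 1609 in replicates 1, 2 and 4 and was not in replicate 3. A tRNA gene lies within 200 bp of the egl-17 summit. The promoter-window peak of mom-1, with a signal of 53.0, is shared with lev-9 on the opposite strand and is separate from the intronic peak of rank 6. The summit of this shared peak lies inside a tRNA gene. LEV-9 helps to cluster acetylcholine receptors at the neuromuscular junction.

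Several lists hold genes known from neurons. In the list of neuronal migration, axon guidance and synapse genes, 3 of 19 had an IDR summit: apl-1, unc-115 and rig-1, which encodes a neuronal immunoglobulin-domain protein. The unc-115 peak ranked 424, 276, 6189 and 205, and the rig-1 peak, with a signal of 44.7, ranked 769, 453, 3798 and 9109. Among channels, 2 of 16 potassium and calcium channel genes (unc-2 and twk-20) and 1 of 3 innexin genes (unc-7) had one. On the list of ligand-gated channels, 2 of 16 genes had one, the receptor subunit gene acr-12 and lev-9, which does not encode a channel. The lev-9 summit is the one inside a tRNA gene named above. The twk-20 peak, 178 bp upstream of this potassium channel gene, had a signal of 54.2 and ranked 1039, 777, 3961 and 399. The unc-7 peak had a signal of 51.1 and ranked 1907, 872, 7587 and 499.

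Among neuropeptide genes 2 of 16 had an IDR summit, ins-39 and flp-7, whose peak had a signal of 51.4 and was not in replicate 3. Of the 28 amine and peptide receptor genes, only npr-8, a neuropeptide receptor gene, had an IDR summit in its promoter window. The npr-8 peak had a signal of 60.6 and ranks of 697, 877 and 465 in replicates 1, 2 and 4. Transcription factor lists had 1 of 11 homeobox genes (ceh-89), 1 of 16 nuclear hormone receptor genes (nhr-48), 1 of 9 other named factors (fkh-9) and 0 of 3 basic helix-loop-helix genes. The nhr-48 peak has CGCAGGG 44 bp from its summit, a signal of 47.3 and ranks of 225, 2127 and 1651 in replicates 1 to 3. The fkh-9 peak, in the window of this forkhead gene and of 2 non-coding genes, had a signal of 52.4 and ranked 5263, 632, 391 and 11672.

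Housekeeping genes on X are few. The ribosomal protein gene rpl-11.2 had a peak of 76.8 in signal 345 bp upstream, ranking 192, 1172, 892 and 236. The gene vha-12, for a subunit of the vacuolar proton pump, had one of 56.4 that ranked 996, 1001, 17629 and 882. The small heat shock gene hsp-25 had one of 48.0 that was not in replicate 3. No IDR summit lay in the promoter windows of the X members with a pooled summit of 10 further lists. They hold 10 chemoreceptor, 1 touch receptor neuron, 11 muscle, 4 cuticle, 13 intestine, 4 mitochondrial energy, 5 heterochronic and 1 cell death gene, 3 genes of X signal elements, sex determination and dosage compensation, and the 3 basic helix-loop-helix genes above. For microRNAs the list matched 2 X genes by symbol, none with a pooled summit, because the annotation writes most microRNA names in another form.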

How the data were processed

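ChIP-seq libraries of 4 biological replicates of 1 strain were analysed as 1 group, numbered as in the labels; spread between them is the spread between these samples. Region lists were used as the authors deposited them for ce11 (WBcel235), and for ce10 as counts only. The authors deposited a signal score for each region and gave no scale for it. The deposited −log10 q-value column is at its maximum at 206 X IDR peaks (79.8%) and was not used. The IDR threshold, caller and aligner are not stated in the labels or headers. The shared control was left out of all steps. Read depth is unknown, so no counting interval was computed. In all, 0 columns were left out.

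A library region belonged to an IDR peak when they overlapped by at least 1 bp. Autosomes are chromosomes I to V, and the mitochondrial chromosome was left out. Genes came from Ensembl release 115, and sequence from the RefSeq genome of WBcel235; coordinates are 1-based. Shares or medians were differenced within each library and tested by sign flips over the 4 libraries. Python 3.11.15 with numpy 2.4.6, pandas 2.3.3, scipy 1.17.1 and matplotlib 3.10.9 was used, and the steps were tested on simulated data. Genes were named by rule: those nearest to, or with a promoter window at, the 12 strongest X IDR peaks found in all 4 libraries and the 5 strongest distal ones, up to 4 members of each gene list, the 3 weakest members and the 3 strongest X regions outside the list, and the 3 largest groups within 5 kb. Other genes were named after their values were seen. The members, motifs and lists were chosen with earlier results of these data known. The GC split at 40%, tRNA distance, quintiles, the 16 strongest, the 25 strongest of each library and the motifs GTGGATA and CCTTCGC were added after the data were seen.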

Additional observations from a re-analysis of the deposited data

Results flagged for a closer look

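In replicate 3, 87.6% of the autosomal IDR peaks overlapped a region of the library, far from the 97.9% to 99.3% of the other 3 libraries. The median percentile of signal of the X IDR peaks was 96.2 in replicate 3, far from the 97.8 to 97.9 of the others. Both values passed Dixon's 95% criterion for the lowest of 4 samples, which chance alone passes in about 5% of groups. That rate holds for a single measure, and other measures were looked at too.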

How the results depend on the processing

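Read depth and the control limit what can be said, because a region's absence from a library's 30000 strongest may be lack of depth, which was not tested. Both promoter-share differences kept their direction under all alternatives. Leaving out 1 library in turn gave 10.4 to 12.3 points against the other X regions and −7.79 to −6.92 points against the autosomal IDR peaks. It gave −0.563 to −0.148 points for library support, 0.163 to 0.493 for signal percentile, and 216 to 246 X IDR peaks in all of the remaining libraries. The library support difference reversed to 0.256 points in the upper 50% by signal, and the cause was not tested. The share with a neighbouring IDR peak moved, as its construction implies, to 5.43% within 1000 bp, 25.2% within 5000 bp and 9.30% in the upper 50% by signal. Within 100 bp of the summit CGCAGGG was at 6.59% of X IDR peaks, the motif GAGAGA at 33.7% and the E-box CAGGTG at 3.10%. Within 25 bp the share with GAGAGA was 10.9%. CGCAGGG was also lengthened by the 2 bases most often before it, with 1 mismatch allowed. Within 100 bp it then matched at 20 X IDR peaks (7.75%), 38 other X regions (0.765%) and 14 autosomal IDR peaks (1.87%). The 2 bases are those seen most often at the X IDR peaks themselves, so these counts are not a test. The ce10 list holds 261 X IDR peaks. No paired analysis was possible because there is no second group of samples; differences between sets of regions were taken within each library.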

Other observations

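A few X IDR peaks outside the strongest 16 also held CGCAGGG within 100 bp. They are those of rank 32 near col-185 (112.3), 54 in Y41G9A.17 (84.5), 58 in a coding exon of pks-1, a polyketide synthase gene (83.1), 99 in an intron of sto-6 (66.1), 154 near T24D8.6 (54.7), 196 at egl-17 (49.6) and 214 at nhr-48 (47.3). The pks-1 summit, 15182 bp from the nearest protein-coding 5′ end, is the most remote of the 258 and ranked 255, 688, 215 and 72 in replicates 1 to 4. The peak in the 3′ UTR of hpl-1, which encodes a heterochromatin protein of the HP1 family, had a signal of 97.6 and ranked 400, 415, 3254 and 59.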
